A study of Mus musculus with 4 samples.

Results

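The nuclear genes of oxidative phosphorylation were described by the chromatin accessibility of their promoters in visceral adipose tissue from the CD-1 mouse. They were taken from the RefSeq annotation of GRCm38, the assembly that mm10 names, as protein-coding genes on chromosomes 1 to 19 whose symbols mark them as subunits of respiratory complexes I to V. The rule found 81 of 20021 coding genes. Of these, 74 were core subunits, with 35 in complex I, 4 in complex II, 8 in complex III, 10 in complex IV and 17 in complex V. A further 6 were isoforms known mainly from other tissues (Cox4i2, Cox6a2, Cox6b2, Cox7b2, Cox8c and Ndufa4l2), and 1 was a single-exon copy, Ndufb4c. Cox7a1 and Cox8b were left out by the rule, as were Ndufa1, Ndufb11 and Cox7b on the X chromosome. Ndufa4 was counted under complex I and Cox7a2l under complex IV by their symbols, although Ndufa4 is now known as a subunit of complex IV and Cox7a2l as an assembly factor of supercomplexes.

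Oxidative phosphorylation is the pathway by which mitochondria turn the oxidation of nutrients into ATP. Complexes I and II feed electrons from NADH and succinate into the chain, complex III passes them to cytochrome c, complex IV hands them to oxygen, and complex V, the ATP synthase, uses the proton gradient built by complexes I, III and IV. Most subunits are encoded in the nucleus and a few in mitochondrial DNA, so the nuclear genes are expressed in nearly every cell and their output is matched to that of the mitochondrial genome. In white adipose tissue the pathway is known to supply energy for lipid storage and adipokine secretion.

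Accessibility was measured by ATAC-seq, in which a transposase cuts open chromatin and inserts sequencing adapters. CD-1 is an outbred stock, and the animals were 8 weeks old. The 2 control libraries came from the line whose founding dams were given sesame oil. The 2 BPA libraries came from descendants of dams injected daily with bisphenol A, a compound with oestrogenic activity. The dose was 50 mg/kg, given from embryonic day 7.5 to 13.5. The sampled animals were therefore not themselves injected. The labels and the study's text give different generations for the BPA animals, and neither the sex of the animals nor a batch was given. The study's text counts 4 mice behind the 4 libraries, so the spread between replicates covers animals as well as library preparation. Whole adipose tissue was used, so a promoter peak is a sum over all its cell types, and fewer cells of a type cannot be told apart from less open chromatin per cell.

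The lists held 82665 and 88911 peaks in the control libraries and 72375 and 98060 in the BPA libraries. A peak was assigned to a gene when it came within 500 bp of any of the gene's transcription start sites. The best such peak was ranked by its −log10 q-value among all peaks of the same list, and the rank was written as a percentage of the list, so that a low rank is near the top. Pile-up, the number of overlapping fragments at the summit, had a median of 56 and 55 over coding promoters in the controls, 77 in BPA 1 and 252 in BPA 2. BPA 2 thus stood apart in depth, and ranks were used between libraries in place of pile-up. A percentage rank still depends on the length of the list, which differed between libraries, and values from lists of equal length are given beside the comparison of the groups. With 2 libraries a group no two-sided exact permutation test can give a p below 0.333, so differences between groups are described without a test.

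All 7 adipocyte markers had a promoter peak in every library, with a median rank of 54.3% and 23.1% in the controls and 64.7% and 51.2% in BPA. Adipoq, the gene of adiponectin, ranked at 58.6%, 20.3%, 67.2% and 51.2%. The groups overlapped for 5 of the 7, while Pparg and Cebpa, adipogenic transcription factors, lay nearer the top in both BPA libraries. The same held for 41.2% of coding genes with a peak in every library. None of the 3 hepatocyte markers had a peak. Of the 5 striated muscle markers, 1 had a peak in each control and in BPA 1 and 2 in BPA 2, and Ckm, Myh2 and Myog had none anywhere. Of the 5 germ cell markers, 0 and 1 had a peak in the controls and 1 and 2 in BPA. The endothelial markers moved with the groups. Of the 3 endothelial markers, 1 had a peak in each control and 3 in each BPA library, and their pile-up summed to 0.214 and 0.436 times the median coding promoter in the controls and to 1.48 and 1.26 times in BPA. Of the 6 leukocyte markers, 1 and 2 had a peak in the controls and 3 in each BPA library, summing to 0.714 and 0.582 times against 1.18 and 1.01 times, while Cd3e and Csf1r were among those with no peak in any library. The leukocyte gap rested on Cd68, a macrophage marker with a peak in BPA alone, and without it the sums were 0.714 and 0.582 times in the controls and 0.312 and 0.563 times in BPA. The part of these cell types in the differences described below was not tested.

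Promoter sequences are shown for the genes on which the comparisons turn. Atp5g1, Atp5g2 and Atp5g3 encode the same mature subunit c of the ATP synthase from 3 separate promoters. Cox7c and Cox5a lay near opposite ends of the control ranking of complex IV, Ndufa7 was the core gene without a peak in 1 library, Sdhd shares its promoter with a neighbouring gene, and Cox6b2 was the isoform with a peak in every library. Each sequence runs 5′ to 3′ along the gene's own strand from 100 bases before to 30 bases after the start in the RefSeq promoter table of GRCm38. Capitals mark matches, on either strand, to 8 motifs searched by their letters. These were NRF1 (GCGCATGCG), the ETS motif read by GABP (CCGGAAG), YY1 (AAGATGGCG), SP/KLF (GGGCGG), ATF/CREB (TGACGTCA), ERR (TCAAGGTCA), the CCAAT box (CCAAT) and the TATA box (TATAAA), none of which contains another. The intervals are chr11:96075602-96075731 (minus strand) for Atp5g1, chr15:102671018-102671147 (minus) for Atp5g2, chr2:73911297-73911426 (minus) for Atp5g3, chr13:86046766-86046895 (minus) for Cox7c, chr9:57521132-57521261 (plus) for Cox5a, chr17:33824472-33824601 (plus) for Ndufa7, chr9:50603820-50603949 (minus) for Sdhd and chr7:4753065-4753194 (minus) for Cox6b2.
Atp5g1: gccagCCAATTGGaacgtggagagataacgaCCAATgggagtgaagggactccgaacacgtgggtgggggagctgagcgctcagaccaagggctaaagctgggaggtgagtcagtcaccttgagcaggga
Atp5g2: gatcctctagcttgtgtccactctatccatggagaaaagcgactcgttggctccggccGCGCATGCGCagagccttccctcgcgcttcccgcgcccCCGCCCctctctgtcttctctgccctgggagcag
Atp5g3: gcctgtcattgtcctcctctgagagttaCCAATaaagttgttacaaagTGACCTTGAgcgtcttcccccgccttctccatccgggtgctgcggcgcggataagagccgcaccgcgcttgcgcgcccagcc
Cox7c: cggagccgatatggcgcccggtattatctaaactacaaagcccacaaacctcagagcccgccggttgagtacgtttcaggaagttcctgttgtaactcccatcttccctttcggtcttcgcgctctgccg
Cox5a: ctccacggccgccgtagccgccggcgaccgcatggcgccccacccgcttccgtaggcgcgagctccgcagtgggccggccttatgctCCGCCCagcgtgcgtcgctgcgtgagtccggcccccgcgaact
Ndufa7: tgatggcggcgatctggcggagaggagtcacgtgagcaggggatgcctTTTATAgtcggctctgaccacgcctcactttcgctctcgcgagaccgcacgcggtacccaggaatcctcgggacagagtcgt
Sdhd: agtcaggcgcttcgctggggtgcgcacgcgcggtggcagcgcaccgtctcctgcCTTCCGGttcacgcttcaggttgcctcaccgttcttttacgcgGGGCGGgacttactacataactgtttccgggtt
Cox6b2: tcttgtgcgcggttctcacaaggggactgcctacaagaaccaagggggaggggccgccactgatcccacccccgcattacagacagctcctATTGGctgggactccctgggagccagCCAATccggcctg

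Nearly every core subunit gene had an open promoter in this tissue. A promoter peak was found for 73 of 74 core genes in control 1, where 63.4% of all coding genes had one, and for 74 of 74 in control 2 (62.2%), BPA 1 (65.1%) and BPA 2 (68.4%). In all 4 libraries together 73 of 74 had a peak, beside 58.8% of coding genes, and 0 of 74 lacked one throughout, beside 29.4%. The exception was Ndufa7, an accessory subunit of complex I whose start lies 10 bp from that of the ribosomal protein gene Rps28 on the opposite strand. It had no peak in control 1 and low ones elsewhere, at 65.7% of the list in control 2, 55.2% in BPA 1 and 28.5% in BPA 2. These were the lowest places of any core gene in each of those 3 libraries.

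The core peaks lay high in each list. Their median rank was 4.37% and 5.58% in the controls and 6.99% and 5.36% in BPA, against 9.31%, 10.8%, 9.32% and 6.88% over all coding promoters with a peak. The core median was thus nearer the top in every library, and the gap was narrowest in BPA 2. In the top 10% of the list were 59 of 73, 53 of 74, 53 of 74 and 64 of 74 core genes with a peak, in that order of libraries. Coding promoters had 52.2%, 48.3%, 52.6% and 64.9% there. In the top 1% were 11 of 73 and 6 of 74 core genes in the controls and 1 and 2 of 74 in BPA. Coding promoters had 7.36%, 7.68%, 6.26% and 8.12% there, so the core share of the top 1% was below the coding share in both BPA libraries.

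**Figure D1:**
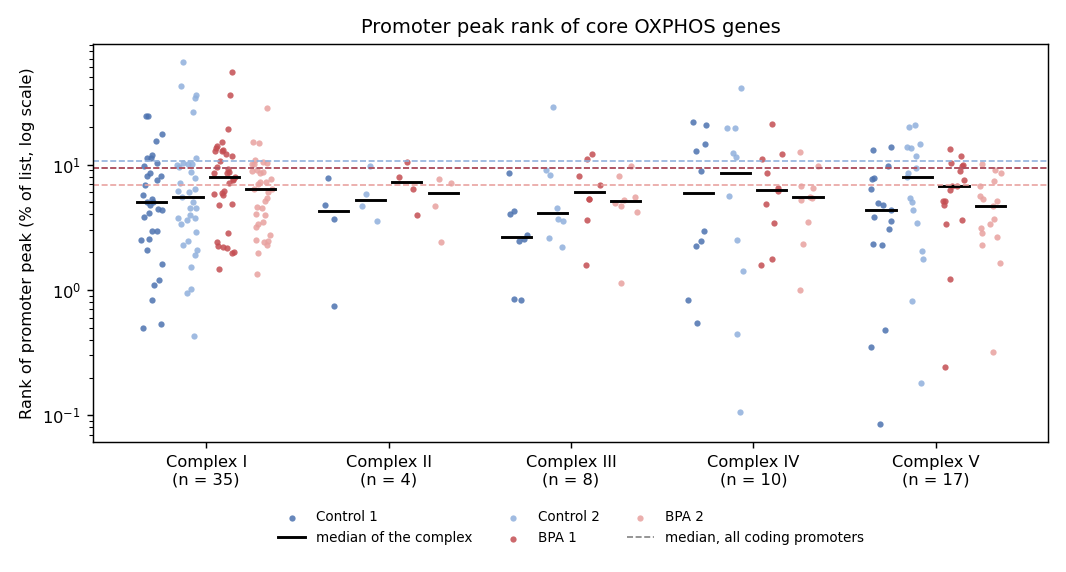
Rank of the promoter peak (percent of the library's list, log scale, low values near the top) for each core gene, by complex and library. Points are genes, black bars the median of a complex in a library, and dashed lines the median over all coding promoters of each library; the lowest point in each library except control 2 is Atp5g1, at 0.0847% in control 1 and 0.321% in BPA 2.

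Complex I, the NADH dehydrogenase, spanned the widest range. Its median rank was 5.04% and 5.55% in the controls and 7.92% and 6.38% in BPA. Ndufb5, an accessory subunit of the membrane arm, had the best mean rank, at 0.497% and 0.430% in the controls and 1.96% and 2.48% in BPA. Both control values lay nearer the top than both BPA values. Ndufb10, another membrane-arm subunit, had the poorest mean rank among members with 4 peaks, at 24.5% and 26.2% in the controls and 35.8% and 14.7% in BPA. There the 2 BPA libraries fell on either side of the controls. Ndufv1 and Ndufv2, which form the NADH-oxidising tip with Ndufv3, went in opposite directions, as Ndufv1 ranked at 5.70% and 5.55% in the controls and 2.19% and 3.45% in BPA. Ndufv2 ranked at 1.09% and 1.02% in the controls and 4.83% and 2.75% in BPA.

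Complex II, succinate dehydrogenase, is the one respiratory complex encoded wholly in the nucleus. Its 4 promoters had a median rank of 4.22% and 5.24% in the controls and 7.20% and 5.91% in BPA. Sdha, the flavoprotein subunit, had the best mean rank, at 0.749% and 4.67% in the controls and 6.39% and 2.43% in BPA. The control replicates of this gene differed by more than the group means, which were 2.71 ± 2.77% and 4.41 ± 2.80% (SD, n = 2). Sdhb, the iron-sulphur subunit, had the poorest, at 4.76%, 9.75%, 10.4% and 7.73% in the same order. Of the membrane anchors, Sdhc ranked nearer the top in both controls (3.69% and 3.52%, against 8.02% and 7.13%) and Sdhd in both BPA libraries (7.80% and 5.81%, against 3.99% and 4.68%).

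Complex III, the cytochrome bc1 complex, had the best control medians, at 2.64% in control 1 and 4.10% in control 2, against 6.07% and 5.08% in BPA. Uqcr10, a small subunit, led it with 0.831%, 4.50%, 1.57% and 1.13% in control 1, control 2, BPA 1 and BPA 2. Uqcr11, another small subunit, stood last with 8.60%, 28.8%, 12.2% and 9.75%. For both genes control 2 alone was far from the other 3 libraries. The Rieske iron-sulphur protein gene, Uqcrfs1, ranked at 4.29%, 9.09%, 8.06% and 4.95%, with overlapping groups.

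Complex IV, cytochrome c oxidase, had a median rank of 5.91% and 8.53% in the controls and 6.29% and 5.47% in BPA. Cox7a2l had the best mean rank, at 0.827% and 1.42% in the controls and 1.78% and 0.997% in BPA. Cox6c had the poorest, at 12.7% and 40.8% in the controls and 21.1% and 12.7% in BPA, again with control 2 apart. Cox7c, chosen here after its values were seen, ranked at 0.549% and 0.106% in the controls and 3.41% and 6.48% in BPA. Cox4i1 and Cox5a, whose proteins form an early intermediate of the assembling enzyme, had like ranks. Cox4i1 ranked at 21.7% and 19.7% in the controls and 8.60% and 5.21% in BPA, and Cox5a at 20.5% and 19.5% against 6.11% and 5.46%.

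Complex V, the ATP synthase, held the core gene with the best mean rank in these lists. Atp5g1 ranked at 0.0847% and 0.181% in the controls and 0.242% and 0.321% in BPA. The other subunit c genes, which give the same mature protein, lay much lower. Atp5g2 ranked at 13.9% and 14.6% in the controls and 7.60% and 5.64% in BPA, and Atp5g3 at 4.37%, 7.93%, 8.87% and 2.64%. The 3 genes kept the order Atp5g1, Atp5g3, Atp5g2 in both controls and in BPA 2, whereas in BPA 1 Atp5g2 was ahead of Atp5g3. Atp5b, the catalytic β subunit, ranked at 0.351% and 0.820% in the controls and 1.23% and 2.29% in BPA, and Atp5a1, the α subunit, at 2.304%, 5.01%, 3.62% and 2.82%. Atp5d, the δ subunit of the central stalk, had the poorest mean rank, at 7.82%, 19.8%, 11.7% and 10.0%.

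The summit of a core peak lay close to the annotated start in most cases. It was within 100 bp of a start for 48 of 73 core genes in control 1, 53 of 74 in control 2, 53 of 74 in BPA 1 and 52 of 74 in BPA 2, against 47.8%, 53.6%, 49.5% and 46.4% of coding promoters with a peak. The peak covered the gene's own start for 73, 73, 74 and 74 genes, beside 93.1%, 91.5%, 94.3% and 95.9% of coding promoters with a peak. At most 1 core gene had a second peak in its window in a library, which was seen in control 2, against 5.44% to 6.63% of coding genes with a peak.

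The width of core peaks stayed near that of other coding promoters. Their median was 1149 bp and 993.5 bp in the controls and 927.5 bp and 1186.5 bp in BPA, or 1071 ± 110 bp and 1057 ± 183 bp (SD, n = 2), a difference smaller than the spread within either group. All coding promoter peaks had medians of 1207 and 977 bp in the controls and 1009 and 1300 bp in BPA. Divided by these medians, the core width was 0.984 ± 0.0459 in control and 0.916 ± 0.00462 in BPA (SD, n = 2), a gap larger than the spread within either group. The widest mean peak in complex I was at Ndufa13, known also as the cell-death regulator GRIM-19. It measured 2418 and 790 bp in the controls and 2032 and 2210 bp in BPA. Control 2 had 2 peaks in the Ndufa13 window, and the 790 bp peak scored there did not cover an annotated start. The narrowest mean was at Ndufb10, at 707, 589, 563 and 872 bp. Uqcrh, the hinge protein of complex III, had peaks of 2748 and 1981 bp in the controls and 2263 and 2634 bp in BPA, the widest mean of its complex. Its start lies 199 bp from that of Lrrc41. Uqcr11 had the narrowest mean of complex III, between 761 and 1024 bp. The widest and narrowest of the other complexes were Sdhd (997 to 1354 bp) and Sdhb (544 to 871 bp), Cox6a1 (673 to 1934 bp) and Cox5b (283 to 1124 bp), and Atp5j (1761 to 2034 bp) and Atp5mpl (561 to 951 bp).

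Atp5g2 and Atp5md, a small membrane subunit of complex V, were the 2 core genes whose peaks were both wider and nearer the top in each BPA library than in each control. The Atp5g2 peak measured 1061 and 1181 bp in the controls and 2069 and 3238 bp in BPA, and the Atp5md peak 1149 and 1011 bp against 1241 and 1419 bp. Over the 73 core genes with a peak in all 4 libraries, both controls were wider than both BPA libraries for 15, where 15% of coding genes were, and both BPA libraries were wider for 8, where 22.1% of coding genes were.

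**Figure D2:**
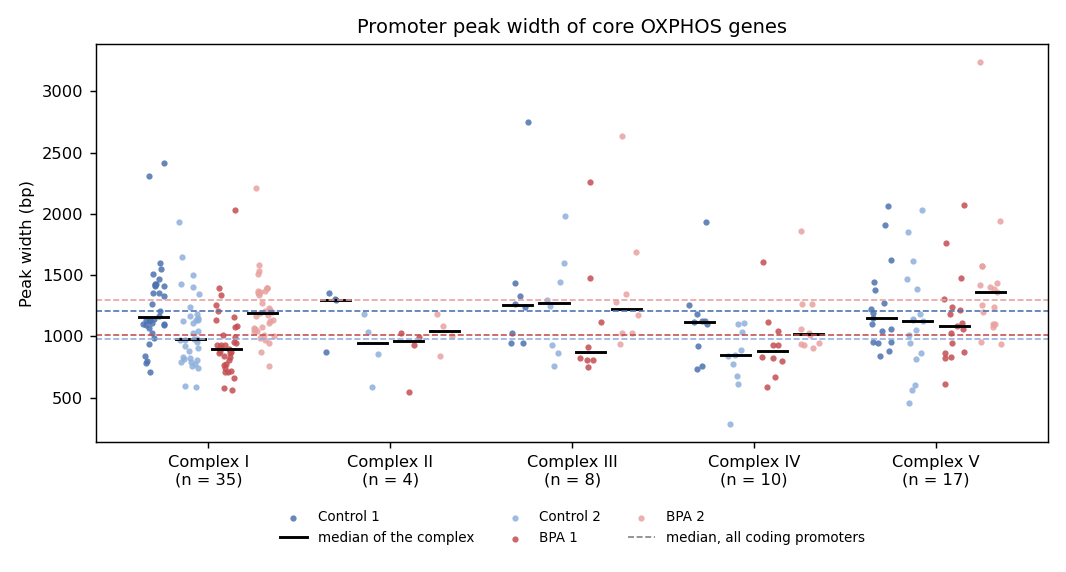
Width in bp of the best promoter peak of each core gene, by complex and library. Points are genes, black bars the median of a complex in a library, and dashed lines the median over coding promoters of each library; the single widest core peak is that of Atp5g2 in BPA 2, at 3238 bp.

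The comparison of BPA with control asked whether the promoters of the pathway held another place among the accessible sites in descendants of exposed dams. The medians of the core genes were 4.97 ± 0.860% in control and 6.18 ± 1.15% in BPA (SD, n = 2), a gap of about the size of the spread between replicates. All coding promoters had 10.0 ± 1.02% and 8.10 ± 1.73%. For each gene with 4 peaks the mean control rank was taken from the mean BPA rank, so that a positive difference means nearer the top in control. The median difference was 0.325 percentage points over 73 core genes, with 41 genes nearer the top in control and 32 in BPA. Over 11773 coding genes it was −1.89 percentage points. The 2 sets were not matched on control rank, whose median was 4.99% for the core and 9.23% for coding genes. The part of this starting place in the contrast was not tested. By complex the median difference was 0.701 in complex I, 1.75 in complex II, 2.15 in complex III, −0.0761 in complex IV and −0.423 in complex V. The core difference changed sign without control 1 (−0.141) and without BPA 1 (−0.458), and it was 1.47 without control 2. It was also negative when peaks were ranked by fold over background (−0.991) or cut to a −log10 q-value of at least 5 (−1.22). The difference over all coding genes was lower than that of the core genes in each of these settings, at −2.18, −3.20, −1.33, −2.62 and −4.62 in the same order. Every list was then cut to its best 20000 peaks, and so to equal length. The difference was 1.95 percentage points for the core and −3.25 for all coding genes. The cut left 67 core genes with a peak in every list, and each of the 73 lost by it had a negative difference in the full lists. Ndufb8 (−23.9) and Ndufs7 (−19.4) were among the lost. A percentage point also holds fewer peaks in a shorter list, so these sizes cannot be set beside those of the full lists.

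Genes whose groups did not overlap were then counted. Both BPA ranks were nearer the top than both control ranks for 13 of 73 core genes, where this held for 41.2% of coding genes. Both control ranks were nearer the top for 23, where this held for 18.6%, and the groups overlapped for 37. Complex III had 4 such genes on the control side (Uqcrb, Uqcrc2, Uqcrh and Uqcrq) and 0 on the BPA side, and complex I had 12 and 6. When each peak was ranked among coding promoter peaks alone, 10 core genes lay on the BPA side (35.9% of coding genes) and 31 on the control side (24.6%). There the core medians were 31.2 ± 3.20% in control and 39.8 ± 0.762% in BPA (SD, n = 2). The split depended on the measure, as ranking by fold gave 26 on the BPA side (39.6% of coding genes) and 18 on the control side (15.8%), and a −log10 q-value of at least 5 gave 18 (50.4%) and 18 (12.5%). Leaving out a library lets more genes fall apart by construction. The BPA and control sides then held 31 (55.6%) and 27 (26.7%) without control 1, 17 (50.8%) and 42 (28.1%) without control 2, 25 (59.8%) and 24 (21.8%) without BPA 1, and 15 (43.9%) and 38 (32.5%) without BPA 2. In each of these settings the core share was below the coding share on the BPA side and above it on the control side. The coding genes in these shares were not matched to the core on control rank.

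**Figure D3:**
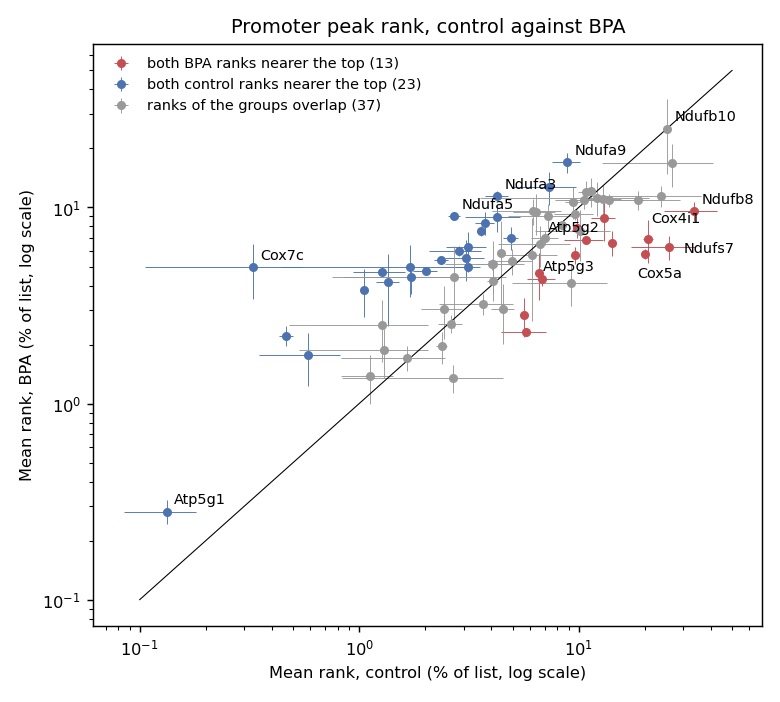
Mean rank of the promoter peak in the 2 control libraries (x axis) and the 2 BPA libraries (y axis), in percent of the list on log scales, for the 73 core genes with a peak in every library. Bars span the 2 libraries of a group, the line marks equal ranks, and points above it are genes nearer the top in control; 23 genes stand apart on the control side and 13 on the BPA side.

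The genes furthest on the BPA side were Ndufb8, Ndufs7 and Cox5a. Ndufb8, a membrane-arm subunit of complex I, ranked at 24.4% and 42.6% in the controls and 10.6% and 8.53% in BPA, a difference of −23.9 percentage points. Ndufs7, which binds the iron-sulphur cluster next to the ubiquinone site, ranked at 17.4% and 34.1% in the controls and 7.16% and 5.39% in BPA, a difference of −19.4. For both of these genes control 2 was the library furthest from the rest. Cox5a had tight replicates, with a mean of 19.99 ± 0.748% in control and 5.79 ± 0.461% in BPA (SD, n = 2) and a difference of −14.2. Its summit pile-up was 39 and 42 in the controls, below the median coding promoter, and 101 and 313 in BPA, above it.

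The genes furthest on the control side were all accessory subunits of complex I. Ndufa9 ranked at 7.59% and 10.2% in the controls and 19.05% and 15.0% in BPA, a difference of 8.15 percentage points. Ndufa3 ranked at 4.77% and 3.73% in the controls and 12.1% and 10.9% in BPA, a difference of 7.22. Ndufa5 ranked at 2.53% and 2.89% in the controls and 9.20% and 8.87% in BPA, a difference of 6.32. For these 3 genes replicates of a group differed by less than the groups did. The pile-up of Ndufa5 was 97 and 90 in the controls, above the median coding promoter, and 74 and 191 in BPA, below it.

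Replicates ordered the core genes more alike than libraries of different groups did. Across the 73 core genes Spearman's rho was 0.845 between the controls, 0.875 between the BPA libraries and 0.615 to 0.702 across groups, and over 11773 coding genes it was 0.882, 0.914 and 0.663 to 0.782. These values run across genes, which are not independent replicates, and the 4 libraries share the promoters' base composition.

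Many core genes start back to back with another gene. An opposite-strand coding start lay within 500 bp for 26 of 74 core genes, or 35.1%, and for 1750 of 20021 coding genes, or 8.74%. In complex I these were Ndufa11 (with Vmac, at 63 bp), Ndufa13 (Tssk6, 164 bp), Ndufa2 (Ik, 69 bp), Ndufa4 (Phf14, 379 bp), Ndufa5 (Asb15, 454 bp), Ndufa7 (Rps28, 10 bp), Ndufa8 (Morn5, 135 bp), Ndufb1 (Cpsf2, 236 bp), Ndufb3 (Fam126b, 64 bp), Ndufb5 (Mrpl47, 308 bp), Ndufb9 (Tatdn1, 63 bp), Ndufs1 (Eef1b2, 9 bp) and Ndufs3 (Kbtbd4, 19 bp). In complex II they included Sdha (Ccdc127, 77 bp) and Sdhd (Timm8b, 52 bp), and in complex III Uqcr10 (Zmat5, 312 bp), Uqcrb (Gm10767, 65 bp) and Uqcrh (Lrrc41, 199 bp). Cox4i1, with Gm27021 at 83 bp and Emc8 at 138 bp, was the one case in complex IV. In complex V they were Atp5a1 (Haus1, 117 bp, with overlapping transcripts), Atp5c1 (Kin, 102 bp), Atp5h (Kctd2, 207 bp), Atp5j (Gabpa, 102 bp), Atp5md (Pdcd11, 119 bp) and Atp5pb (Wdr77, 235 bp). Gabpa encodes the DNA-binding subunit of GABP, a regulator of respiratory genes, and Timm8b and Mrpl47 encode a mitochondrial import chaperone and a mitochondrial ribosomal protein.

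Peaks at such promoters cannot be divided between both genes. A single peak covered both starts for 25 of 25 core genes with a partner and a peak in control 1, and for 24, 25 and 25 of 26 in control 2, BPA 1 and BPA 2. The median rank of core genes with a partner was 2.73% and 4.404% in the controls and 6.33% and 4.90% in BPA. Core genes without one had 4.87%, 7.50%, 7.99% and 5.58%, lower in the list in every library. Over all coding genes the medians were 4.09%, 4.63%, 4.76% and 3.53% with a partner and 10.6%, 12.2%, 10.4% and 7.62% without.

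Promoter sequence was searched in the RefSeq table, which spans 250 bases before to 50 bases after a start and held 64 of the 81 genes, 62 of them core. Those not matched included Atp5a1, Atp5mpl, Cox4i1, Cox4i2, Cox6a2, Cox6c, Cox8c, Ndufa2, Ndufa4l2, Ndufb4c, Ndufb9, Ndufs1, Sdhc, Uqcrb, Uqcrc2 and Uqcrq. NRF1 and GABP are regulators long linked with nuclear respiratory genes, and YY1 and ERR factors are also known to act on them. The NRF1 motif was found in 8 of 62 core promoters (12.9%), in 4.26% of 9473 coding promoters with a peak in all 4 libraries and in 2.73% of all 15996 in the table. Atp5g2 carried it in the sequence printed above, and Uqcrc1, Uqcr11, Atp5k, Atp5l, Cox6a1, Ndufa11 and Ndufa8 were the others. The ETS motif was found in 17 core promoters (27.4%, against 20.6% and 13.5%), with Sdhd as the printed example. The YY1 motif was found in 7 (11.3%, against 3.55% and 2.19%). These were 5 of the 31 complex I promoters searched and 2 of the 15 of complex V.

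The ERR motif was found in 2 core promoters (3.23%, against 0.285% and 0.381%), those of Atp5g3 and Sdhd, and the printed Atp5g3 sequence shows its match. The SP/KLF motif was found in 25 (40.3%), below the 71.5% of open coding promoters and the 51.2% of all coding promoters. The CCAAT box was found in 25 (40.3%, against 42.8% and 42.2%), the TATA box in 6 (9.68%, against 8.21% and 14.7%) and the ATF/CREB motif in 4 (6.45%, against 3.82% and 2.68%). At least one of NRF1, ETS and YY1 was present in 27 core promoters (43.5%, against 26.5% and 17.3%). These 27 had a median rank of 6.82% and 8.60% in the controls and 9.48% and 6.72% in BPA, lower in every list than the other 35, at 4.33%, 4.67%, 6.39% and 4.53%. The printed promoters of Atp5g1, with CCAAT boxes alone, and Cox7c, with no match, were among the highest-ranked in the controls.

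**Figure D4:**
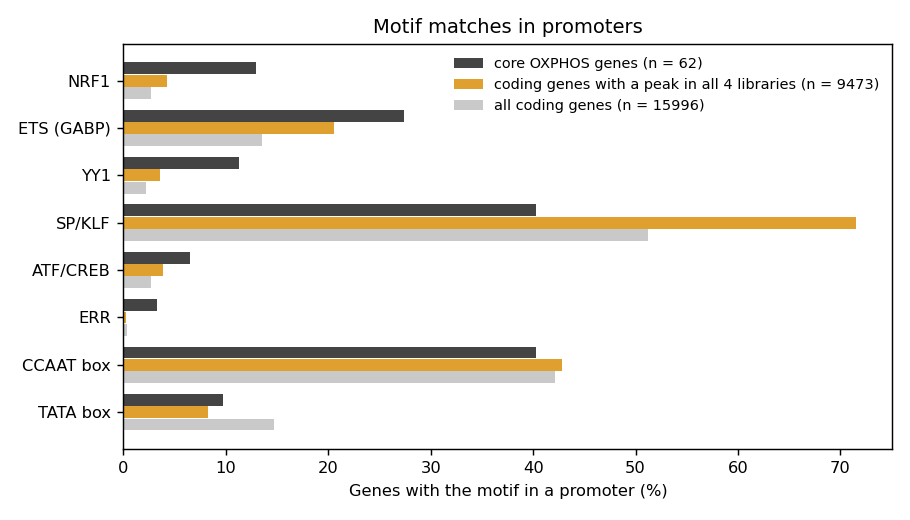
Share of genes, in percent, with at least 1 match to each motif on either strand of the promoter, for 62 core genes, 9473 coding genes with a peak in all 4 libraries and 15996 coding genes in the promoter table. Bars start at 0, and the core bar is longest for NRF1 (12.9%), ETS (27.4%), YY1 (11.3%), ERR (3.23%) and ATF/CREB (6.45%). It is shorter than both others for SP/KLF (40.3%) and, by a small margin, for the CCAAT box (40.3%).

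Base composition moved with the direction of the group difference. The median G+C content of core promoters was 58.5%, between 57% over all coding promoters and 61.3% over the open ones. It was 62.7% for the 11 core genes in the table with both BPA ranks nearer the top, 55.3% for the 17 with both control ranks nearer the top and 59.0% for the 33 that overlapped. Over coding genes the same 3 classes had 63.7%, 57.3% and 61.0%, so the order was that of the whole set of promoters. Single genes departed from it, as Ndufb8 and Ndufs7 on the BPA side had 55.3% and 56.3%, while Cox5a had 65.0%. The part of base composition in the rank differences was not tested.

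Of the 6 isoforms known from other tissues, 4 had no promoter peak in any library, beside 29.4% of coding genes. Cox6a2, a heart and muscle isoform, Cox7b2 and Cox8c, known from testis, and Ndufa4l2, a hypoxia-induced relative of Ndufa4, had no promoter peak in any library, and neither had the single-exon copy Ndufb4c. Cox4i2, the oxygen-sensitive counterpart of Cox4i1, had a peak in BPA 2 alone, at 66.3% of the list. Cox6b2, known as a testis isoform, had a peak in all 4 libraries, at 12.9% and 37.9% in the controls and 32.0% and 20.01% in BPA. Its peak was 1133 to 1426 bp wide, the pile-up at its summit was 44 and 28 in the controls and 25 and 78 in BPA, and the nearest other coding start, that of Kmt5c, was 12775 bp away. It lay lower in each list than the somatic Cox6b1, which ranked at 8.85%, 12.3%, 12.1% and 9.77%.

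Genes that build the complexes had promoter peaks throughout. All 46 assembly factors on the list had a promoter peak in every library, beside 58.8% of coding genes. Their median ranks were 3.98% and 3.98% in the controls and 5.24% and 4.90% in BPA. Timmdc1, which helps to assemble the membrane arm of complex I, was near the top at 0.577%, 0.291%, 0.569% and 0.432%, and Atpaf1, a chaperone of the ATP synthase, was low at 33.9%, 30.4%, 17.9% and 11.5%. Both control ranks were nearer the top for 16 of 46 assembly factors, where this held for 18.6% of coding genes, and both BPA ranks for 11, where this held for 41.2%. Of 4 further genes outside the symbol rule, Ndufab1, Cyc1 and Cycs had a peak throughout, and Atpif1, the inhibitor of ATP hydrolysis by complex V, had one in 3 libraries but not in control 2. Cycs, the somatic cytochrome c, ranked at 1.91% and 0.472% in the controls and 1.24% and 1.19% in BPA.

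Of 18 regulators of mitochondrial gene expression, 18 had a peak in each control and in BPA 2, and 17 in BPA 1. In all 4 libraries 17 had a peak, beside 58.8% of coding genes. The missing one was Ppargc1a, a coactivator of mitochondrial biogenesis, which ranked at 10.1% and 4.32% in the controls and 11.2% in BPA 2 and had no peak in BPA 1. Of the 3 brown adipocyte markers, which include Ppargc1a, 2 and 3 had a peak in the controls and 1 and 3 in BPA, and the Ucp1 promoter had one in control 2 and BPA 2. Esrra, which encodes the receptor ERRα, was 1 of the 5 on the BPA side, at 5.62% and 6.20% in the controls and 1.08% and 1.09% in BPA. The median rank of the regulators was 4.04% and 6.18% in the controls and 3.68% and 1.68% in BPA, with 5 genes apart on the BPA side (41.2% of coding genes), 2 on the control side (18.6%) and 10 overlapping.

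**Figure D5:**
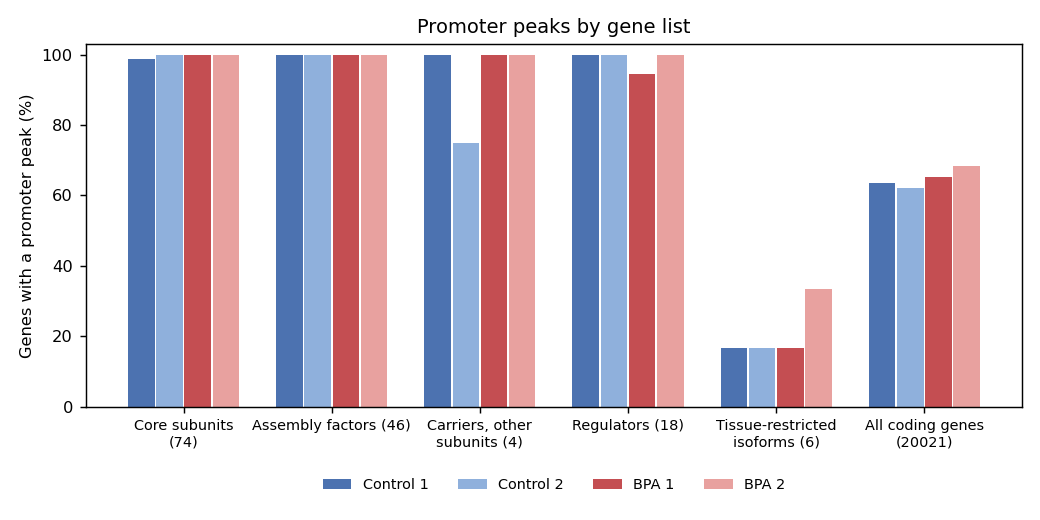
Share of genes with a promoter peak, in percent from 0, in each of the 4 libraries for the 74 core subunit genes, the assembly factors, the carriers and other subunits, the regulators, the tissue-restricted isoforms and all 20021 coding genes. The 46 assembly factors stand at 100% in each library, while 1 or 2 of the 6 tissue-restricted isoforms had a peak in a library.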

How the data were processed

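ATAC-seq was performed on nuclei of visceral adipose tissue by the Omni-ATAC protocol in 4 libraries, 2 control and 2 BPA, grouped by their labels. The authors trimmed reads with trim_galore, mapped them to mm10 with bowtie2 2.3.5.1, dropped multi-mapping reads and PCR duplicates with samtools, and ran the peak caller MACS2 2.2.7.1 separately for every library. CD-1 reads were thus mapped to the reference of another strain, and its effect on single promoters was not tested here. The authors also mapped the reads to their CD-1 genome, and some peaks were called with a single reference only. They propose that variants between CD-1 mice can alter transcription factor binding. The part of such variants in the differences of single genes was not tested here. The deposited score is the −log10 q-value multiplied by 10 and truncated. The deposited fold is the ratio of summit pile-up to local background. The peak caller also gave the deposited −log10 q-value and −log10 p-value, with a q-value threshold of 0.05.

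Coding transcripts (36208, with 24860 distinct starts) were taken from curated RefSeq models of GRCm38 on chromosomes 1 to 19. The lists hold no read totals, so depth was read from the summit pile-up, solved from the fold and p-value for 100% of promoter peaks (relative error under 0.0001). Computation used Python 3.11.15, numpy 2.4.6, pandas 2.3.3 and scipy 1.17.1, and the scoring was tested on simulated peaks. The genes, lists, motifs and rules were chosen with earlier results of these data known. Genes were named when they lacked a peak in a library, had the best, poorest, widest or narrowest peak of their complex, were among the 3 furthest on either side with groups apart, encoded subunit c, had an opposite-strand coding start within 500 bp, or were isoforms or copies. Other genes named were chosen after their values were seen. Some genes that the rule named are not reported here. No test compared the groups. Alternatives were other windows, thresholds, start sites and rankings and each library left out.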

Additional observations from a re-analysis of the deposited data

How the results depend on the processing

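Of 124 values recomputed under alternative settings, 105 moved by less than the spread between replicates or, for counts, by no more than 1.5 times. The count of core genes with a peak in every library and the width ratio were among these in every setting run. The limits are wide for the group split, as 18 and 18 genes at a −log10 q-value of at least 5 fell within them beside 13 and 23. They are also wide for the core rank difference, whose limit of 1.15 let 1.47 stand beside 0.325. That limit was applied to the difference over all coding genes too. The width ratio of BPA over control was 0.987, with a limit of 0.199. Values on either side of 1, 0.866 without BPA 2 and 1.11 without BPA 1, both fell within it. Some settings, such as a 250 bp window or 1 start site a gene, returned the same core ranks and split, and these repeats are part of the 105. The rank difference between groups (0.325 percentage points) changed sign at a −log10 q-value of at least 5 (−1.22) and when peaks were ranked by fold (−0.991). It was 1.95 within the best 20000 peaks, where 67 core genes kept a peak in every library, and 6.11 among coding promoter peaks. Percentage points of lists of different length are not comparable in size, so 1.95 and 6.11 do not measure a growth of the difference. With each library left out in turn the rank difference ranged from −0.458 (without BPA 1) to 1.47 (without control 2), and was −0.141 without control 1. The core median rank at a −log10 q-value of at least 5 was 7.96% in control and 7.75% in BPA, and within the best 20000 peaks 20.01% and 25.4%, since shorter lists raise every percentage. In the best 20000 peaks 0 isoforms known from other tissues had a peak in all libraries. Ranking by fold put 26 core genes on the BPA side. With a library left out the BPA side held 15 to 31 genes and the control side 24 to 42, a rise that follows from comparing fewer libraries. The difference over all coding genes was −4.62 at a −log10 q-value of at least 5, −3.25 within the best 20000 peaks and −3.20 without BPA 1. The cause of the changes in sign was not tested. No paired analysis was possible because no test compared the groups and shared replicate numbers mark no shared animal, litter or day. The lists hold peaks past the threshold only, so a promoter without a peak cannot be told from one with weak signal at that depth.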
